A study of Mus musculus with 24 samples.

Results

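The 10 reactive astrocyte genes described here are Gfap, Vim, Serpina3n, Lcn2, Cd44, Osmr, Steap4, Timp1, Ptx3 and S1pr3, chosen by name as canonical genes of astrocyte reactivity, with earlier results of these data known, out of 55385 gene identifiers counted. They were measured by RNA sequencing of the hippocampus of 24 adult mice, 4 in each of 6 groups, in a study of how epilepsy develops after deletion of Tsc1. Every mouse carried the floxed Tsc1 allele (Tsc1 fl/fl) and received tamoxifen, so the controls share the allele and the tamoxifen with all other groups. The Tsc1-Cre- controls lacked the Camk2a-CreERT2 transgene and were taken on day 8 after the first tamoxifen injection. Tsc1-Cre+ mice carried the transgene and were taken on day 4, 6, 8 or 13. The last group, Tsc1-Cre+-Rap 4, was taken on day 13 after daily rapamycin, an inhibitor of mTOR, at 10 mg/kg from day 4 on. The Camk2a promoter drives the recombinase in excitatory forebrain neurons, so the deletion was directed at neurons and not at astrocytes.

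Astrocytes respond to injury, inflammation and seizures by enlarging and by making intermediate filament proteins, secreted acute-phase proteins and receptors for cytokines. Cytokines of the interleukin-6 family, such as LIF and oncostatin M, signal through JAK kinases and the transcription factor STAT3, which is known to drive Gfap and many other genes of this response, while SOCS3 is induced by STAT3 and turns the signal off. In hippocampal epilepsy such gliosis is a classic histological feature.

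Values below are counts relative to the library total (CPM), scaled by TMM, edgeR's correction for differences in library composition, and are listed for mice A, B, C and D in that order. A letter does not stand for the same animal from group to group. A gene was called when edgeR's quasi-likelihood test over the 8 mice of a comparison gave a Benjamini-Hochberg adjusted p under 0.05 and the log2 fold change, up or down, was larger than 0.5. Each error of a mean is an SD over 4 mice, and each error of a log2 fold change is an SE. All comparisons with control use the same 4 control mice, and both rapamycin comparisons use the same 4 treated mice.

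Total counts ran from 28208561 to 126435936 per mouse. Day 13 mice A and B were the deepest libraries of all, and mice C and D of that day were the shallowest outside the rapamycin group. Tsc1 itself, counted over the whole gene and not only its deleted part, was at 103 to 109 CPM in the controls, at 68.2 to 81.7 on days 4 to 8, at 57.4 to 68.9 on day 13 and at 66 to 68.9 with rapamycin, so no Cre+ mouse reached the lowest control. The level of Xist, a transcript of female cells, parted the day 13 mice in the same way as their depth, with 2 and 1.53 CPM in A and B against 810 and 816 in C and D. Xist was at 3.12, 1055, 636 and 1070 CPM in the controls and at 836, 727, 847 and 3.18 on day 8. It was at 2.37, 3.08, 1.72 and 946 on day 4 and at 902, 2.42, 2.87 and 2.12 on day 6. With rapamycin it was at 1016, 1033, 2.18 and 3.04. By this marker the groups differed in their mix of sexes. Markers of neurons and astrocytes were looked at beside the tissue label. None particular to the hippocampus was used, so the region itself was not checked. The 7 neuron markers summed to 4473 to 6222 CPM and the 12 homeostatic astrocyte markers to 5129 to 7899 CPM over all mice. In bulk tissue, more reactive cells and more RNA per cell cannot be told apart.

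Per kilobase of exon, the scale on which genes can be set beside each other, the mean control levels spanned a wide range. Gfap was highest at 44.9 CPM per kb, followed by Serpina3n at 11.6, Vim at 5.03, Timp1 at 2.88 and S1pr3 at 1.48. Osmr was at 0.607, Cd44 at 0.482, Steap4 at 0.176, Lcn2 at 0.106 and Ptx3 at 0.104. Lcn2 and Ptx3 rested on 12 to 20 counts in each control mouse and Steap4 on 6 to 92, so small changes of these 3 genes could not be seen at this depth.

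**Figure D1:**
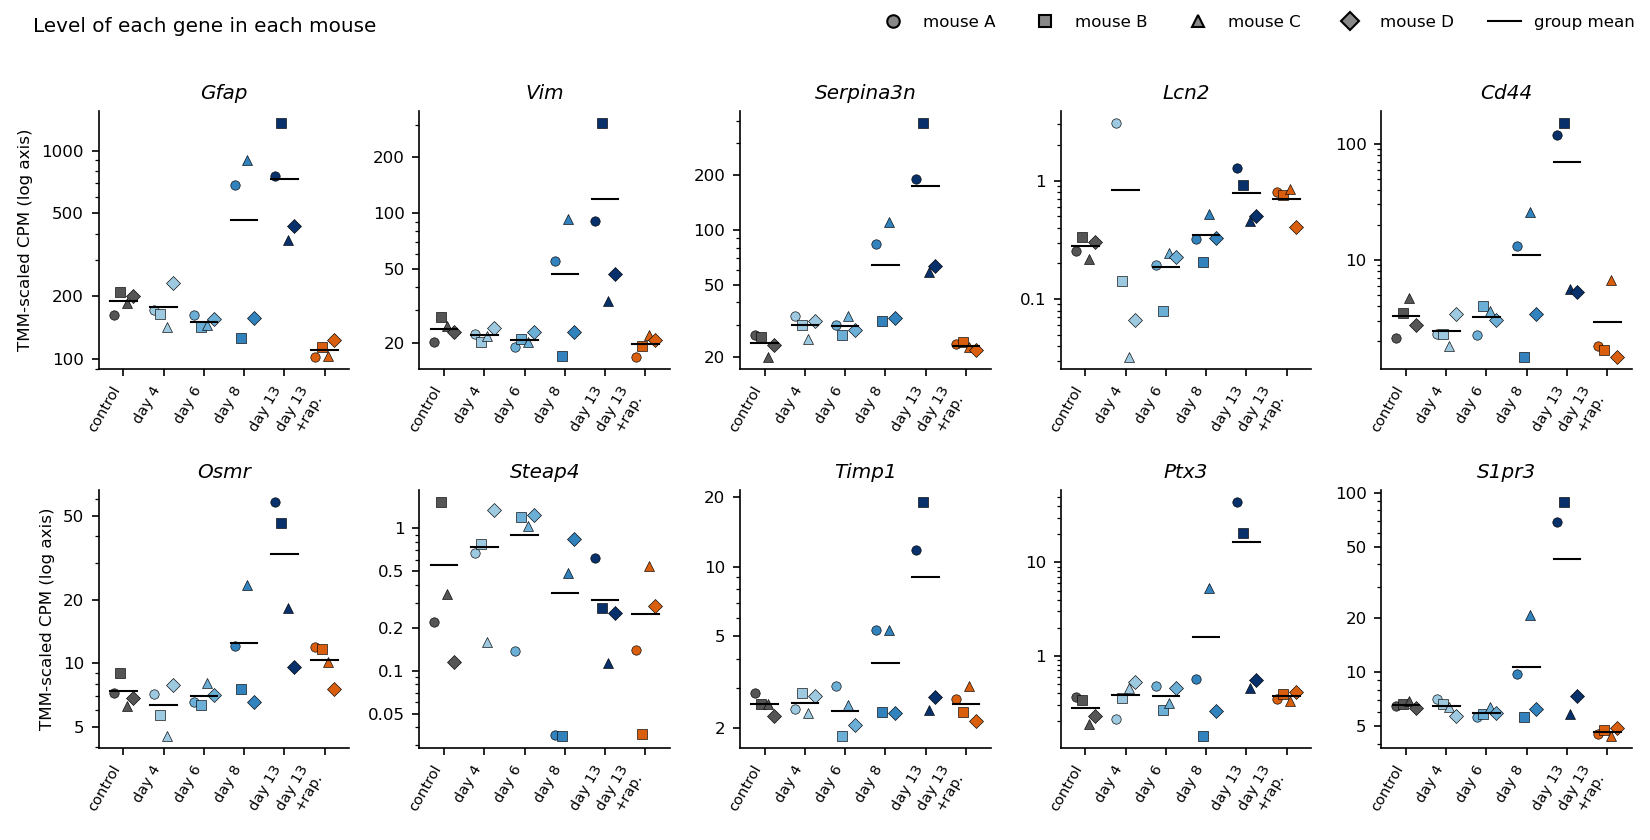
Level of each of the 10 genes in each mouse, as TMM-scaled CPM on a log axis, by group. Points are mice, shapes their letters and bars the group means. On day 8 mice A and C stood above the controls and B and D near them for most genes, and on day 13 mice A and B were highest.

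Most calls of the 10 genes against control in untreated Cre+ mice came on day 13. On day 4, 0 of 10 were called by edgeR, beside 0.68% of the 25308 genes tested, and on day 6, 0 of 10 beside 1.32%. DESeq2 also called none on either day, and gave no adjusted p for Lcn2, Steap4 and Ptx3. With an unadjusted p under 0.05 there was 1 gene on day 4, Serpina3n, beside 18.4% of genes tested, and there were 3 on day 6, Gfap, Vim and Serpina3n, beside 24.2%. On day 8, 1 of 10 was called, Serpina3n, beside 3.99% of all genes tested, and 6 had an unadjusted p under 0.05 beside 28.9%. On day 13, 9 of 10 were called and all 9 were higher, beside 8.4% of genes called higher, and Steap4 was not called. All 10 passed the filter on low counts in each comparison.

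The median log2 fold change of the 10 genes against control went from -0.01 at day 4 and -0.10 at day 6 to 0.85 at day 8 and 2.22 at day 13, while the median over all genes tested lay between -0.040 and -0.005. On day 13, 7 of the 10 had all 4 mice above all 4 controls, as had 17.1% of genes tested. Against untreated day 13 mice, the rapamycin group was called lower for 8 of 10, beside 11.2% of genes called lower. Against control, the rapamycin group was called for 3 of 10, beside 1.41% of genes called in either direction, with Gfap and S1pr3 lower and Lcn2 higher.

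The counts rested in part on single mice. On day 8 the count was 4 without mouse B, 2 without mouse D and 0 without mouse A or any 1 control. With rapamycin against control it was 1, Gfap, without rapamycin mouse A or C or control mouse C. On day 13 it fell to 4 without control mouse C and to 5 without control mouse D, and stood at 9 without day 13 mouse C or D. With Xist expression added to the fit as a covariate, an alternative chosen after the data were seen, 4 genes stayed called, Gfap, Serpina3n, Lcn2 and Osmr. With all libraries thinned to the smallest total, also chosen after the data were seen, the same 9 genes were called. The part of sex in the differences between mice and between groups was not tested beyond the Xist covariate.

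**Figure D2:**
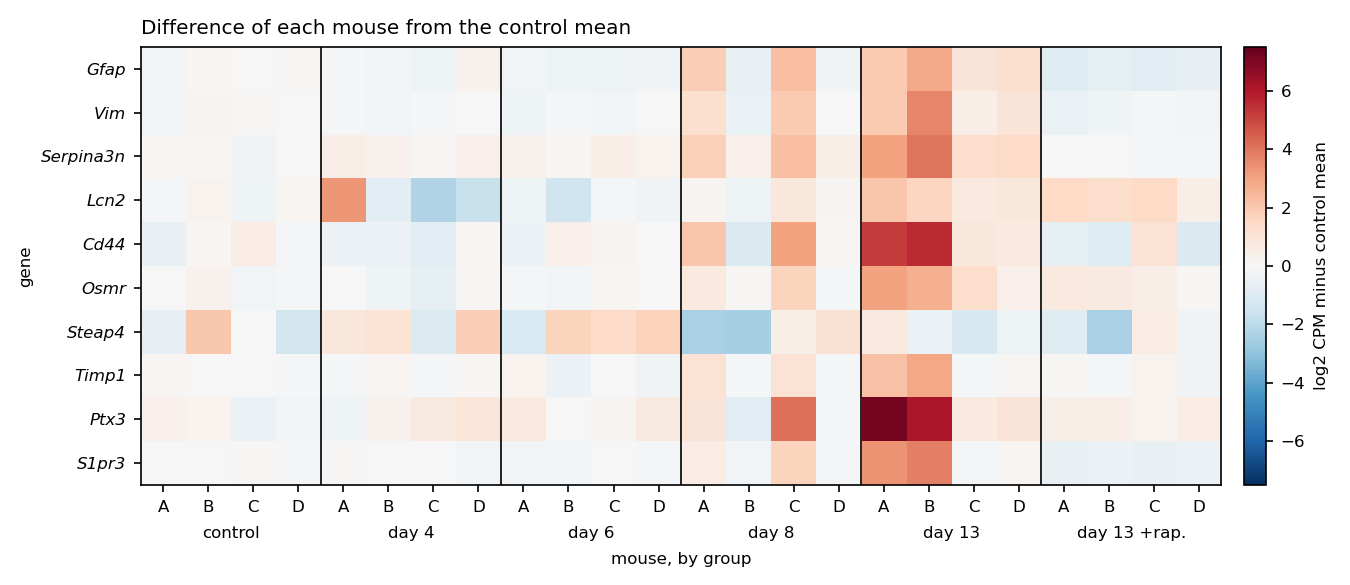
Difference of each mouse from the control mean, as log2 CPM, for the 10 genes (rows) in the 24 mice (columns, by group). Red is above and blue below the control mean, and the strongest red is Ptx3 in day 13 mouse A at 7.19.

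Gfap encodes the intermediate filament protein of astrocytes. It was at 162, 209, 186 and 201 CPM in the controls, 173, 165, 142 and 232 on day 4, and 163, 142, 146 and 155 on day 6. It was at 681, 127, 900 and 158 on day 8, 751, 1356, 372 and 437 on day 13, and 102, 114, 104 and 124 with rapamycin. On day 8 mice A and C were at 3.6 and 4.75 times the control mean and B and D were below all controls, on day 13 all 4 mice lay above all controls, and with rapamycin all 4 lay below all controls. The log2 fold change was -0.33 ± 0.0685 on day 6 (adjusted p = 0.00781), too small to be called. It was 1.28 ± 0.517 on day 8 (adjusted p = 0.127) and 1.91 ± 0.35 on day 13 (adjusted p = 0.00466). With rapamycin it was -0.77 ± 0.0806 against control (adjusted p = 3.81e-04) and -2.70 ± 0.35 against day 13 (adjusted p = 8.37e-04). The day 13 call and both rapamycin calls held without any 1 mouse, while on day 8 Gfap was called without mouse B or mouse D.

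Vim, which encodes vimentin, the filament protein that joins GFAP in reactive astrocytes, followed the same mice. Its levels were 20.2, 27.4, 24.8 and 23 CPM in the controls, 55.5, 16.9, 92.9 and 22.8 on day 8, and 91.1, 306, 33.6 and 47.1 on day 13. With rapamycin it was at 16.7 to 22.1, on day 4 at 20.3 to 24.1 and on day 6 at 19.1 to 23. Mouse B of day 13 stood far above the rest, and the lowest day 13 mouse was still above every control. Its log2 fold change was 0.96 ± 0.424 on day 8 (adjusted p = 0.161), called only without mouse B, and 2.29 ± 0.597 on day 13 (adjusted p = 0.0205), a 4.89-fold mean difference. The day 13 call was lost without any 1 of the controls (adjusted p up to 0.0614). Rapamycin-treated mice had -2.58 ± 0.591 against day 13 (adjusted p = 0.00976) and -0.27 ± 0.0995 against control (adjusted p = 0.155).

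Among 9 other intermediate filament genes, 6 were called higher on day 13, beside 8.4% of genes tested, and none lower. Their median log2 fold change was 0.67. Nefh and Nefm, subunits of neuronal neurofilaments, rose by 1.13 and 0.88, Lmna, which encodes the nuclear lamins A and C, by 1.12, and Nes, which encodes nestin of progenitors and reactive astrocytes, by 1.28. Against control the rapamycin group had 1 of the 9 called lower, Nes at -0.77, beside Gfap at -0.77. Nefm was called from day 6 on, at 0.51 on that day and 0.77 on day 8, and Nefh on day 8 at 0.61.

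Serpina3n, a secreted inhibitor of serine proteases and an acute-phase gene, was the earliest of the 10 to be called. It was at 26.5, 25.8, 19.9 and 23.3 CPM in the controls, 33.6, 29.9, 25 and 31.4 on day 4, and 30.2, 26.6, 33.5 and 28.1 on day 6. It was at 83.3, 31.4, 111 and 32.7 on day 8 and at 191, 389, 58.5 and 63.2 on day 13. On days 6, 8 and 13 every mouse was above every control, which held for 9.85% of genes tested on day 6 and for 12.3% on day 8. On day 4 the log2 fold change was 0.33 ± 0.0997 (adjusted p = 0.0886) and on day 6 it was 0.30 ± 0.0886 (adjusted p = 0.0477), below the size required for a call. It rose by 1.42 ± 0.356 on day 8 (adjusted p = 0.0247), a call lost without day 8 mouse A or any 1 control (adjusted p up to 0.0757). On day 13 it rose by 2.84 ± 0.55 (adjusted p = 0.00601), or 7.18-fold, called without any 1 mouse.

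With rapamycin Serpina3n was at 23.6, 24.3, 22.7 and 21.8 CPM, inside the control range in all 4 mice. The log2 fold change against control was -0.05 with a 95% interval of -0.23 to 0.13 (adjusted p = 0.825), and against day 13 it was -2.90 ± 0.535 (adjusted p = 0.00371). Serpina3n belongs to a cluster of close gene copies, among which reads may be shared out in ways not stated here. Of 12 other serpins, including copies of that cluster, 5 passed the filter in the day 13 comparison and 5 were called higher there. Only 3 passed it in the day 6 comparison, so some may have passed through their day 13 levels alone, and the count supports nothing about the list. Among them Serpinf1, which encodes the secreted factor PEDF, rose by 1.49.

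Ptx3 encodes a long pentraxin, a secreted pattern recognition protein. It was at 0.367, 0.334, 0.189 and 0.23 CPM in the controls, 0.211 to 0.53 on day 4, 0.267 to 0.471 on day 6 and 0.333 to 0.406 with rapamycin. On day 8 it was at 0.568, 0.138, 5.36 and 0.256, and on day 13 at 44.5, 20.5, 0.454 and 0.558. Mouse A of day 13 was 159 times and mouse B 73.4 times the control mean, whereas C and D were 1.62 and 1.99 times that mean. Its log2 fold change on day 13 was the largest of the 10 at 5.86 ± 1.4 (adjusted p = 0.0143), lost without control mouse C (adjusted p = 0.0503), the only single mouse for which this held, and lost with the Xist covariate. On day 8 the value was 2.47 ± 0.983 (adjusted p = 0.123) and fell to 0.18 without mouse C. Against day 13 the rapamycin group had a log2 fold change of -5.46 ± 1.34 (adjusted p = 0.0133). All 4 rapamycin mice lay below all 4 day 13 mice, as for 17.7% of genes tested. The gap to day 13 mice C and D was narrow, 0.333 to 0.406 against 0.454 and 0.558 CPM, on 10 to 22 counts with rapamycin.

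Of 6 other pentraxin genes 4 passed the filter on day 13, with 2 called higher, beside 8.4% of genes tested, and 1 lower. The 2 higher were neuronal pentraxin genes, Nptx2, which encodes a synaptic protein induced by activity, at 3.60 ± 0.517 and Nptxr at 0.86 ± 0.103, and both were also called on day 8, at 1.43 and 0.55.

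Lcn2 encodes lipocalin 2, a secreted carrier of iron-binding siderophores. It was at 0.257, 0.334, 0.22 and 0.306 CPM in the controls, 0.196, 0.0785, 0.243 and 0.225 on day 6, and 0.32, 0.207, 0.525 and 0.329 on day 8. It was at 1.29, 0.921, 0.454 and 0.507 on day 13 and at 0.798, 0.752, 0.853 and 0.406 with rapamycin. All mice of these last 2 groups were above all controls, which held for 5.7% of genes tested in the rapamycin group. These levels rested on 16 to 108 counts a mouse on day 13 and 20 to 42 with rapamycin. On day 13 the gene rose by 1.51 ± 0.362 on the log2 scale (adjusted p = 0.0145), lost without control mouse C (adjusted p = 0.0503) and in the fit on all 24 mice. With rapamycin it was 1.32 ± 0.303 against control (adjusted p = 0.0314), lost without any 1 mouse other than rapamycin mouse D (adjusted p up to 0.0907). DESeq2 gave a log2 fold change of 1.32 and no adjusted p there. Rapamycin and day 13 mice differed by -0.21 with a 95% interval of -1.03 to 0.61 (adjusted p = 0.699).

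On day 4 the levels of Lcn2 were 3.09, 0.141, 0.0321 and 0.0663 CPM. Mouse A held the highest level of all 24 mice, on 176 counts, and the other 3 day 4 mice were below every control. The log2 fold change of 1.56 (adjusted p = 0.464) became -1.80 without mouse A (adjusted p = 0.0841). S100a8 and S100a9, abundant genes of neutrophils, were at 0.0702 and 0.14 CPM in that mouse, and the 9 leukocyte and neutrophil markers summed to 8.74 CPM there against 6.56 to 9.76 in the other day 4 mice and 8.1 to 9.7 in the controls. The source of this level was not tested. Lcn2 shared little of the pattern of the other genes across the 24 mice, with Pearson correlations of log2 CPM between -0.0947 and 0.574.

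Cd44 encodes the receptor for hyaluronan, a matrix polysaccharide, on reactive astrocytes and leukocytes. It was at 2.11, 3.49, 4.7 and 2.78 CPM in the controls, 13.3, 1.45, 26 and 3.4 on day 8, and 118, 151, 5.62 and 5.32 on day 13. On days 4 and 6 it stayed between 1.81 and 4.05. All day 13 mice were above all controls, A and B by 36.2 and 46.1 times the control mean and C and D by 1.72 and 1.63 times. Cd44 had a log2 fold change of 1.73 ± 0.685 on day 8 (adjusted p = 0.121), called only without mouse B, and 4.39 ± 1.05 on day 13 (adjusted p = 0.0148), lost without control mouse D (adjusted p = 0.0501). With rapamycin Cd44 was at 1.8, 1.67, 6.66 and 1.46. Mouse C lay above all controls and the other 3 below them, with a log2 fold change of -0.17 ± 0.421 (adjusted p = 0.88) that became -1.0 without mouse C (adjusted p = 0.0534). Against day 13 it was -4.56 ± 1.12 (adjusted p = 0.0132).

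Of 10 other genes of hyaluronan synthesis and binding, 3 were called higher on day 13, beside 8.4% of genes tested, and none lower. These were Has2, a hyaluronan synthase, at 3.41 ± 0.894, Spp1, which encodes osteopontin, a secreted ligand of CD44, at 2.83 ± 0.754, and Acan, which encodes the proteoglycan aggrecan of perineuronal nets, at 1.18 ± 0.141. Has2 was at 8.46, 11.2, 1.11 and 0.33 CPM on day 13, high in the same mice as Cd44.

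Timp1 encodes a secreted inhibitor of matrix metalloproteinases. It was at 2.86, 2.55, 2.55 and 2.26 CPM in the controls, 5.34, 2.35, 5.34 and 2.34 on day 8, and 11.8, 19.1, 2.41 and 2.74 on day 13. It was at 2.33 to 2.86 on day 4, 1.85 to 3.04 on day 6 and 2.15 to 3.06 with rapamycin. On these 2 days only mice A and C of day 8 and A and B of day 13 lay above the controls, so the day 13 group overlapped them. On day 13 the change was 1.80 ± 0.581 on the log2 scale (adjusted p = 0.0452), and the call was lost without day 13 mouse A or B or any 1 control (adjusted p up to 0.128). Rapamycin differed from control by 0.00 with a 95% interval of -0.32 to 0.32 (adjusted p = 0.998) and from day 13 by -1.81 ± 0.578 (adjusted p = 0.0376), the latter lost without day 13 mouse A or B or any 1 rapamycin mouse (adjusted p up to 0.111).

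Among 11 other TIMP and metalloproteinase genes, 9 passed the filter and 0 were called by edgeR on day 13, where DESeq2 called 2 and 2 had an unadjusted p under 0.05. With rapamycin 3 were called lower than control, beside 1.41% of all genes tested called in either direction. All 3 were genes of metalloproteinases, Adamts4 at -0.90, Mmp15 at -0.86 and Adamts1 at -0.80.

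Osmr encodes the receptor subunit for oncostatin M. It was at 7.23, 9.04, 6.26 and 6.88 CPM in the controls, 12.1, 7.59, 23.5 and 6.55 on day 8, 58.2, 46.4, 18.3 and 9.56 on day 13, and 11.9, 11.7, 10.1 and 7.57 with rapamycin. On day 4 it was at 4.51 to 7.87 and on day 6 at 6.33 to 8.08. Day 13 mouse C was well above the controls for this gene, and mouse D only just. The log2 fold change was 0.74 ± 0.336 on day 8 (adjusted p = 0.172) and 2.15 ± 0.475 on day 13 (adjusted p = 0.0106), called without any 1 mouse. With rapamycin 3 of 4 mice were above all controls, and the log2 fold change of 0.48 ± 0.147 was not called (adjusted p = 0.0909) but was without mouse D, at 0.60 (adjusted p = 0.0219). Against day 13 it was -1.67 ± 0.464 (adjusted p = 0.0216), lost without rapamycin mouse C or D or day 13 mouse A or B (adjusted p up to 0.0703).

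The ligand list of the same family held 8 genes, of which 7 passed the filter on day 13. Of these, 2 were called higher, beside 8.4% of genes tested, and 1 lower. Lif, which encodes leukemia inhibitory factor, was at 92, 31.3, 2.7 and 0.355 CPM on day 13 against 0.472 to 0.55 in the controls, a log2 fold change of 5.93 ± 1.39 (adjusted p = 0.0132). Clcf1, which encodes cardiotrophin-like cytokine factor 1, was at 19.2, 17.8, 0.71 and 0.811 on day 13 and rose by 2.94 ± 0.949 (adjusted p = 0.0451). Osm, the gene of oncostatin M itself, was at 0.0507 to 0.153 CPM on day 13 and at 0.0629 to 0.1 in the controls.

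Of 13 genes of the family's receptors and of JAK-STAT3 signaling, 5 were called higher on day 13, beside 8.4% of genes tested, and none lower. Their median log2 fold change was 0.19. Socs3 was at 98.8, 35.4, 7.47 and 0.989 CPM on day 13 and at 1.85, 1.02, 5.74 and 0.988 on day 8, against 0.825 to 1.09 in the controls. Its day 13 change was 5.20 ± 1.13 (adjusted p = 0.01). Stat3 was at 180, 192, 59.9 and 49.5 on day 13 against 43.2 to 47.6 in the controls, all 4 mice above them, and rose by 1.39 ± 0.395 (adjusted p = 0.029). Bcl3, a coregulator of NF-kB, rose by 3.72 and Pim1, a kinase gene induced by STAT factors, by 1.82. Il6st, the signal-transducing subunit shared with OSMR, was at 117 to 157 CPM on day 13 and 107 to 124 in the controls. With rapamycin Socs3 was at 1.67, 1.79, 2.58 and 1.18, all above all controls, the only gene of this list called against them at 0.92 ± 0.226 (adjusted p = 0.0409).

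S1pr3 encodes a receptor for the lipid sphingosine-1-phosphate. It was at 6.44, 6.67, 6.93 and 6.32 CPM in the controls, 9.82, 5.6, 20.9 and 6.27 on day 8, 68.5, 89.1, 5.88 and 7.4 on day 13, and 4.51, 4.76, 4.39 and 4.87 with rapamycin. On day 4 it was at 5.68 to 7.12 and on day 6 at 5.63 to 6.43. Mice A and B of day 13 were far above the rest, mouse C was below all controls, and the rapamycin mice were all below them. The log2 fold change was 2.67 ± 0.775 on day 13 (adjusted p = 0.0311), lost without day 13 mouse A or B or any 1 control (adjusted p up to 0.0827). With rapamycin it was -0.51 ± 0.0938 against control (adjusted p = 0.0108), close to the size required, and it was no longer called without rapamycin mouse A, at -0.50, or without rapamycin mouse C or control mouse C, both at -0.48. S1pr3 overlaps Gm32834 on the other strand over 45 exon bases, and without the strand setting of the counting reads from there cannot be told apart. Timp1 overlaps Syn1, Ptx3 Veph1, Gfap Gm26668 and Cd44 Gm23731, all on the other strand with 0 shared exon bases. Whether unspliced reads of those genes were counted was not tested.

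Of 9 other genes of this lipid's synthesis, breakdown and receptors, 2 were called higher on day 13, beside 8.4% of genes tested, and 1 lower. Sphk1, which encodes a kinase that makes sphingosine-1-phosphate, was at 26.6, 24.5, 1.87 and 2.26 CPM and rose by 3.10 ± 0.814. Sgpl1, the lyase that breaks it down, rose by 0.87 ± 0.176. S1pr1, another of its receptors, was at 64.7, 48.1, 87.5 and 84.8 on day 13 against 101 to 112 in the controls and fell by 0.60 ± 0.172, lowest in the mice where S1pr3 was highest.

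**Figure D3:**
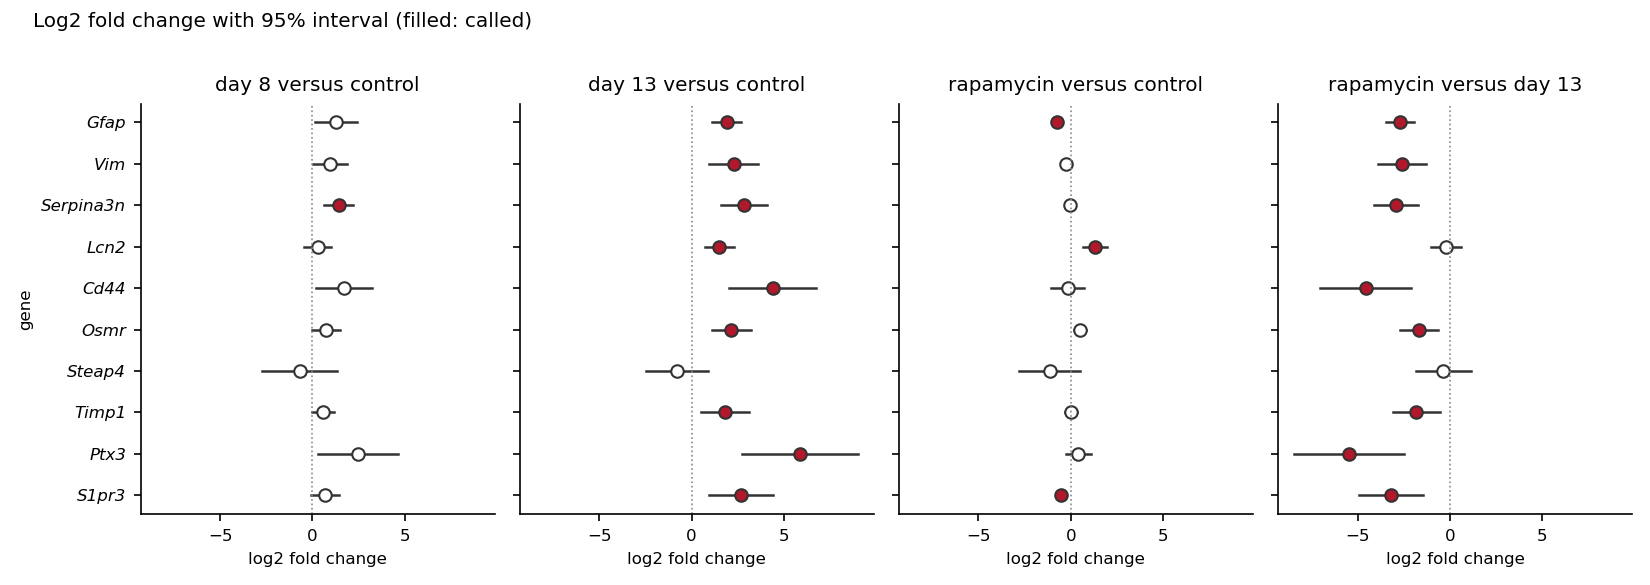
Log2 fold change of each gene with its 95% interval, in 4 comparisons. Filled points were called. On day 13 all but Steap4 lie above 0, and with rapamycin against control the values run from -1.14 for Steap4 to 1.32 for Lcn2.

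Steap4, which encodes a metalloreductase of iron and copper, was the 1 gene of the 10 not called on day 13. It was at 0.22, 1.53, 0.346 and 0.115 CPM in the controls, 0.667, 0.775, 0.16 and 1.34 on day 4, and 0.137, 1.19, 1.04 and 1.24 on day 6. It was at 0.0355, 0.0346, 0.488 and 0.841 on day 8, 0.615, 0.273, 0.114 and 0.254 on day 13, and 0.139, 0.0358, 0.541 and 0.284 with rapamycin. Every group overlapped the controls, and within a group the highest mouse was 5.41 to 24.3 times the lowest. The day 13 log2 fold change was -0.80 with a 95% interval of -2.49 to 0.89 (adjusted p = 0.459), and no comparison called it, except day 6 without control mouse B at 1.95 (adjusted p = 0.0499).

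Its level moved with that of genes of the choroid plexus, the tissue that makes cerebrospinal fluid next to the hippocampus. The correlation of log2 CPM with Ttr, which encodes transthyretin of the choroid plexus, was 0.845 over the 24 mice, where 1 dissection gives both values of a mouse. Ttr was at 1502 CPM in control mouse B and at 18.4 to 39.8 in the other controls. The 6 choroid plexus markers summed to 59.4 to 1686 CPM in the controls, 44 to 1046 on day 4, 44.5 to 1139 on day 6, 38 to 668 on day 8, 39.5 to 427 on day 13 and 43.4 to 533 with rapamycin, with 0 of 6 called by edgeR or DESeq2 in any comparison, 0 at an unadjusted p under 0.05 and none at 0 CPM. The part of choroid plexus tissue in the level of Steap4 was not tested. Its correlations with the other 9 genes lay between -0.0947 and 0.107.

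**Figure D4:**
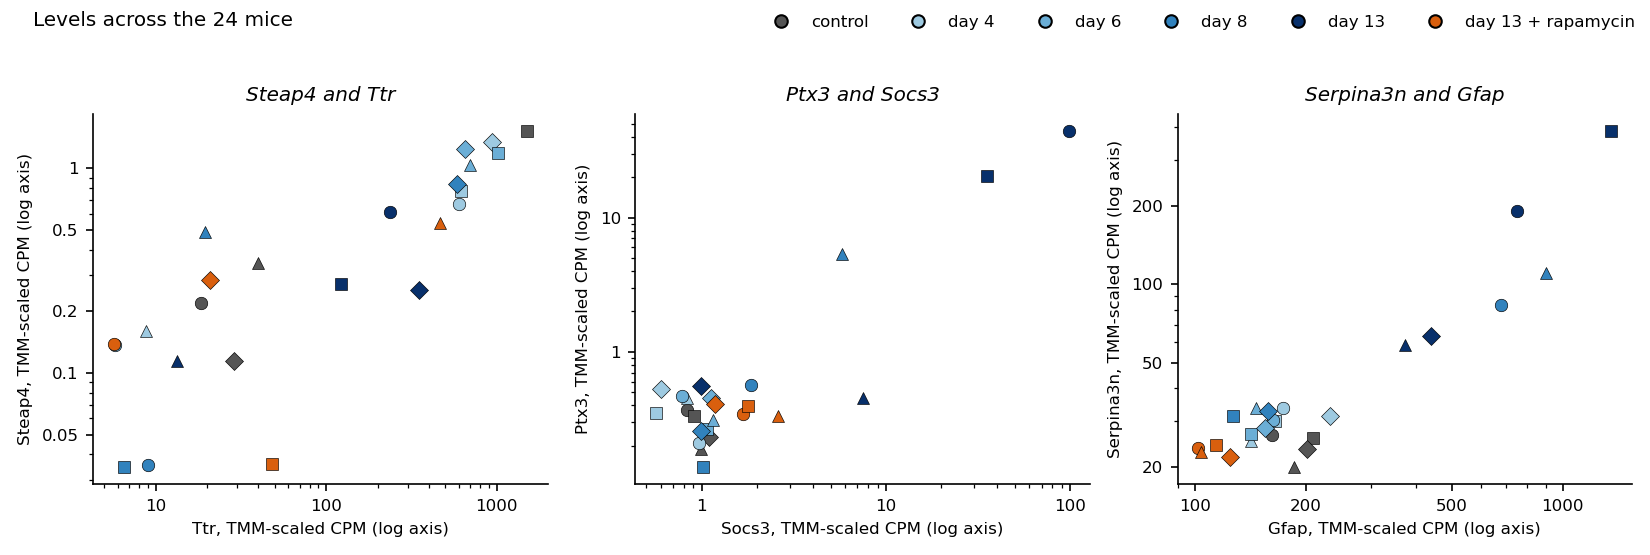
Levels in the 24 mice on log axes, as TMM-scaled CPM, for Steap4 against Ttr, Ptx3 against Socs3 and Serpina3n against Gfap. Colors are groups and shapes the mouse letters as in the plot of levels. Steap4 and Ttr are high in the same mice of several groups, and Ptx3 and Socs3 are both high in day 13 mice A and B.

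The remaining 8 genes are those left after Lcn2 and Steap4, which had low correlations in these same mice, were set aside. High correlations among the 8 were thus in part given by that choice. Over the 24 mice the 28 pairs among them had Pearson correlations of 0.778 to 0.955, with a median of 0.908, where all values share the same libraries and depth. The 6 groups were pooled, so a shift shared by the mice of a group enters each value. No background over other pairs of genes is given here. For 7 of the 10 genes the 4 highest mice were day 13 mice A and B and day 8 mice A and C, as for 2.54% of genes tested on day 13. These day 8 mice were above all controls for 8 of 10 genes, beside 23.5% of genes tested on day 8, while mice B and D of that day were both within or below the control range for 9 of 10, beside 60.1%. Day 13 mice C and D were both above all controls for 7 of 10 genes, all but Steap4, Timp1 and S1pr3, beside 22.4%. These patterns were noticed in the same mice, so the shares are descriptions. Numbers in the deposited file names, called the animal number series here, were shared by mice A and B of the control and day 8 groups. Mice C and D of both groups shared another, and each series held 1 high and 1 low day 8 mouse. No label says what these numbers stand for. Their part in the levels was not tested beyond a block in the day 8 fit. Day 13 mice A and B shared a series, and C and D did not.

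Day 13 was not called different from day 8. In edgeR 0 of 10 genes were called, as were 0 of all 24747 tested (percent called 0), and DESeq2 called none of the 10. At an unadjusted p under 0.05 there were 5 of the 10, Lcn2, Osmr, S1pr3, Ptx3 and Cd44, beside 14.1% of genes tested. A fit on all 24 mice called 5, namely Serpina3n, Cd44, Osmr, Ptx3 and S1pr3. The share of all genes called by that fit is not given here, so these 5 have no background beside them. The median log2 fold change of the 10 was 1.36, and no gene had the 2 groups apart. Ranked by mean, 8 of the 10 genes had day 13 highest and day 8 next, the exceptions being Lcn2 and Steap4, and of 50 neighboring pairs of groups in these orders only 3 did not overlap, namely rapamycin below day 6 for Gfap and S1pr3 and control below day 6 for Serpina3n.

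The genes whose levels were most like Gfap over the 24 mice were Slc38a10, Acvr1c, S100a6, Penk and Aldh1l2, with Pearson correlations of log2 CPM of 0.96 to 0.971 among 13901 protein-coding genes. Most like Serpina3n were Pabpc4, Ppp1r15b, Lman2, Nifk and Rnf4 at 0.974 to 0.98. For Lcn2 the highest were Acer2, Tab3, Blzf1, Apobec3 and Ints14, at only 0.693 to 0.732.

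Wider lists of astrocyte reactivity rose in part, beside 8.4% of all genes tested called higher on day 13. Of 12 other genes induced in reactive astrocytes of any kind, 11 passed the filter on day 13, 6 were called higher and none lower, with a median log2 fold change of 0.97. Hspb1, a small heat shock protein gene, was at 28.5, 29.1, 0.653 and 0.964 CPM on day 13 and rose by 3.28 ± 1.06. Lgals3, the gene of galectin 3, rose by 1.90, Aspg, an asparaginase gene, by 1.88 and S100a6, a calcium-binding protein gene, by 1.75. Of 12 genes named for the A1 type, which was described after inflammation, 5 were called higher and 1 lower on day 13, with Fbln5 at 1.03, Ggta1 at 0.92, Srgn at 0.79 and Iigp1 at -0.82. Of 11 genes named for the A2 type, described after ischemia, 10 passed the filter and 7 were called higher, with Tgm1 at 4.97, Emp1 at 3.62, Sphk1 at 3.10 and Clcf1 at 2.94. These lists share 5 genes with those above, Clcf1, Sphk1, Nes, Synm and Serping1, and the difference between the 2 types was not tested.

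Of 15 inducers of reactivity and genes of NF-kB and C/EBP factors, 14 passed the filter on day 13. Of these, 9 were called higher, beside 8.4% of genes tested, and none lower. Il1a, an interleukin-1 gene, rose by 1.53, Cebpb and Cebpd, C/EBP factors of the acute-phase response, by 1.29 and 1.18, and C1qb, a complement subunit gene, by 1.05. Its partners C1qa and C1qc rose by 0.72 and 0.97. In the brain these 3 genes are made mainly by microglia, and all 4 day 13 mice were above all controls for each, at 32 to 74.1 CPM against 26.1 to 28.6 for C1qa. Of 10 genes of lipocalin uptake, iron handling and the STEAP family, 9 passed the filter and 3 were called higher, with Hmox1, which encodes heme oxygenase 1, at 3.00 ± 0.321, Ftl1, a ferritin subunit, at 0.99 and Tfrc, the transferrin receptor, at 0.66. Calls came earlier for some of these, with Hmox1 at 0.77 and Cebpd at 0.53 on day 6, and Hmox1 at 1.95 and Ftl1 at 0.68 on day 8.

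**Figure D5:**
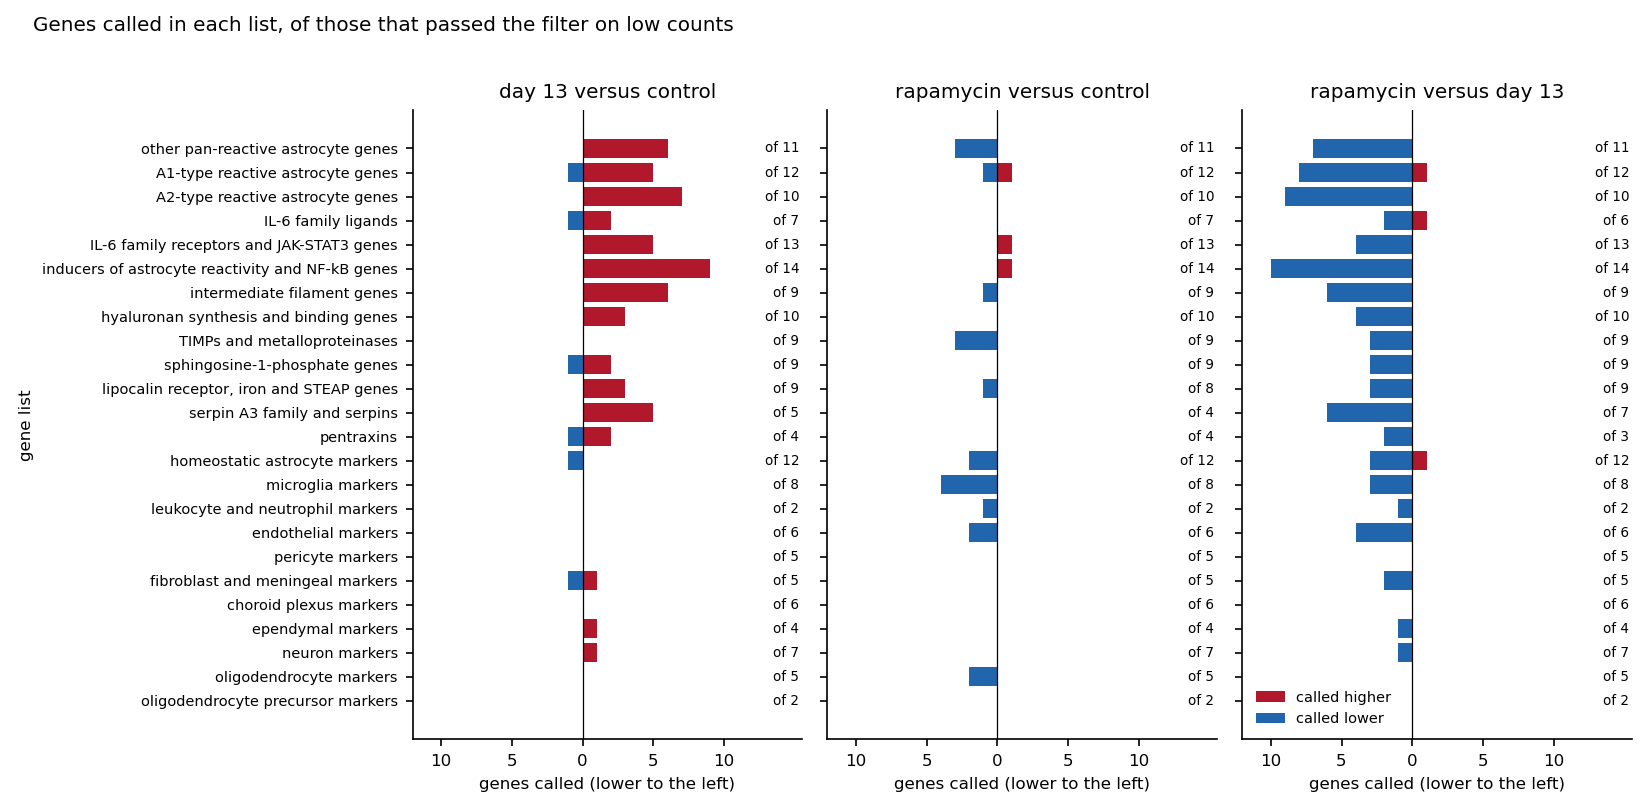
Number of genes called higher (red, to the right) and lower (blue, to the left) in each list, of the number that passed the filter on low counts. On day 13 the inducer and NF-kB list has 9 of 14 genes called higher and the A1-type list 5 of 12 higher and 1 lower, and against day 13 the rapamycin group is called mostly lower.

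Markers of other cells were followed beside these genes, where 8.4% of all genes tested were called higher on day 13. On day 13, 0 of 8 microglia, 0 of 6 endothelial, 0 of 5 pericyte, 0 of 5 oligodendrocyte and 0 of 2 oligodendrocyte precursor markers were called by edgeR, with DESeq2 also calling none of these and with 1, 4, 2, 0 and 0 of them at an unadjusted edgeR p under 0.05. The C1q genes and Il1a, which microglia also make, are not among these markers and were called higher, as given above. The 8 microglia markers summed to 211 to 290 CPM on day 13 and 239 to 287 in the controls. Of 9 leukocyte and neutrophil markers 2 passed the filter, with 0 called by either tool and 0 at an unadjusted p under 0.05, and with sums of 8.52 to 17 on day 13, highest in mouse B, and 8.1 to 9.7 in the controls. Of 5 fibroblast markers Col3a1, a collagen gene, was called higher at 2.05 and Lum, the gene of lumican, lower at -0.91, with sums of 41.3 to 79.5 against 19.9 to 46.6. The 12 homeostatic astrocyte markers summed to 5759, 5129, 7819 and 7449 CPM in day 13 mice A to D against 7361 to 7886 in the controls, and 1 of 12 was called, Gja1, the gene of the gap junction protein connexin 43, which fell by 0.93. Of 4 ependymal markers Foxj1 was called higher at 0.71, and of 7 neuron markers Slc17a7, a vesicular glutamate transporter gene, at 0.73. Their part in the changes of the reactive astrocyte genes was not tested.

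In the rapamycin group, where Gfap and S1pr3 lay below all controls as did 6.2% of genes tested, some markers of glia and endothelium were also called lower. Of all genes tested against control, 1.41% were called in either direction. Aqp4, the water channel of astrocyte endfeet, was called lower at -0.72 and S100b at -0.54. They were 2 of 12 homeostatic astrocyte markers, of which 10 were not called, with a median log2 fold change of -0.04. The sum of the 12, at 7361 to 7619 CPM, stayed within the control range of 7361 to 7886. Of 2 oligodendrocyte precursor markers 0 were called. Fabp7 and S100a6, of the wider reactive list, were called lower at -1.12 and -0.72. Of 8 microglia markers 4 were lower, among them Itgam at -0.70 and Aif1 at -0.67, with sums of 179 to 202 against 239 to 287. Of 6 endothelial markers 2 were lower, Kdr at -1.14 and Cldn5 at -0.68, and of 5 oligodendrocyte markers 2, among them Mog at -0.59. Fkbp5, a glucocorticoid-induced gene of the A1 list, was higher by 0.62, and Nfkbia, which encodes an inhibitor of NF-kB, by 0.77. A fit on all 24 mice called none of the 10 genes in this comparison. No Cre- mouse received rapamycin, so an effect of the drug alone and its effect on Tsc1-deleted mice cannot be told apart. The controls were taken on day 8 and the rapamycin mice on day 13, so time after tamoxifen cannot be told apart from these either.

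Against day 13, the rapamycin group was called lower for 9 of 10 A2-type, 8 of 12 A1-type, 7 of 11 other pan-reactive and 10 of 14 inducer and NF-kB genes that passed the filter, with medians of -2.45, -0.91, -1.38 and -1.15. In these lists 1 gene was called higher, Iigp1 of the A1 list at 0.70. Of all genes tested, 11.2% were called lower. The median of the 10 reactive astrocyte genes was -2.64, beside 0.023 over all genes tested, and 5 of the 10 had all 4 rapamycin mice below all 4 day 13 mice, as had 17.7% of genes tested. The other 5, Lcn2, Cd44, Osmr, Steap4 and Timp1, overlapped between the groups.

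The sequences before the gene starts are shown for the gene called earliest, the gene with the largest change and the gene not called on day 13. They are the 250 bases upstream of the RefSeq start on GRCm38.p6, read along the gene. RefSeq and GENCODE place some starts apart, and the windows of Gfap, Vim, Lcn2 and Osmr, 4 of 10, lie inside the GENCODE gene, as do 15 bases of that of Steap4. The counts of matches depend on which start is used. Capitals mark matches on either strand to letters known from factors of this response, STAT (TTCNNNGAA), AP-1 (TGANTCA), C/EBP (TTNNGNAA) and the NF-kB consensus.
Serpina3n, chr12:104406458-104406707, plus strand: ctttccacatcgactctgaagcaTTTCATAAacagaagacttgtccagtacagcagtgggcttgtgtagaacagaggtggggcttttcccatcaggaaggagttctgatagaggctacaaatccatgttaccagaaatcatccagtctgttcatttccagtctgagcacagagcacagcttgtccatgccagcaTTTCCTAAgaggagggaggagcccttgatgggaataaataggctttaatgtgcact
Ptx3, chr3:66219637-66219886, plus strand: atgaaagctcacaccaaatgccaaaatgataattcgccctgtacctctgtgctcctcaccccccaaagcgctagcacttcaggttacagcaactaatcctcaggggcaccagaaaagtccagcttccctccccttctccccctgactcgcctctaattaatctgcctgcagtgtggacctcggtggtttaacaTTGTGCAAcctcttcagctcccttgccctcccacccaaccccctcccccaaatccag
Steap4, chr5:7960222-7960471, plus strand: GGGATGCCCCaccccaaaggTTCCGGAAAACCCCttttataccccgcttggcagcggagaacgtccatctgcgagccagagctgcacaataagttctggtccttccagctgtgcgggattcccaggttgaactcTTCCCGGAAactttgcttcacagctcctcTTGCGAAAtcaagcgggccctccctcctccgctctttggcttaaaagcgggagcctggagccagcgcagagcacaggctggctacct

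In Serpina3n the capitals are 2 C/EBP matches and in Ptx3 they are 1. Steap4 holds 1 STAT match, 2 C/EBP matches and 2 NF-kB matches, of which 1 C/EBP and 1 NF-kB match share 4 bases. Over the 10 genes, STAT letters were found in 1 window, C/EBP in 6, NF-kB in 2 and AP-1 in 0. Of the 32851 promoters in the table, the shares were 7.02% for STAT, 36.8% for C/EBP, 3.9% for NF-kB and 6.75% for AP-1. Thus none of the 9 genes called on day 13 held the STAT letters in this window, which says only that these letters are not there. A match is a description of the sequence and not a binding site.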

How the data were processed

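Hippocampal RNA of 24 mice, 1 library each, was prepared with a stranded total RNA kit. The authors trimmed reads with cutadapt 1.16.5, aligned them with STAR 2.7.2b to GRCm38 (mm10) and counted them per gene with featureCounts 1.6.4, per the submitters' processing notes, and deposited raw counts. The strand setting and the handling of multiply aligned reads are not given in the sources used here, so close gene copies and overlapping genes are uncertain. Gene names and exon lengths come from GENCODE M21, in which 55144 of 55385 identifiers were found.

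Groups and letters come from the sample titles. Each comparison used the 8 mice of its 2 groups in edgeR 4.0.16 (R 4.3.3), with its filter on low counts, TMM, the quasi-likelihood test and Benjamini-Hochberg adjustment over all genes tested. CPM were TMM-scaled over 24 mice, and log2 CPM used a prior count of 2. The tests were tested on simulated data. Total counts of 28208561 to 126435936 set the precision. P-values set the difference between 2 groups against the spread between mice.

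The 10 genes and the other lists were chosen with earlier results of these data known. All 10 genes were named in every comparison. From other lists at most 4 called genes were named per comparison, those with the largest change among those with a mean of at least 1 CPM. Some genes that this rule names are not reported here. Osm, Il6st, Ttr, S100a8, S100a9, C1qa, C1qc, Synm and, for rapamycin against day 13, Iigp1 were named outside this rule after their values were seen. Alternatives were DESeq2 1.42.0, its size factors, edgeR on all 24 mice, no filter, other fold thresholds, the replicate letter or the animal number series as a block, each mouse left out and, chosen after the data were seen, the Xist level as covariate and thinned counts. Promoters are RefSeq windows on GRCm38.p6, found for all 10 genes. The animal number series was read from the numbers in the deposited file names, and no label says what these numbers stand for.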

Additional observations from a re-analysis of the deposited data

Results flagged for a closer look

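Over the 10 genes, 60 groups of 4 mice were searched for a mouse far from the other 3, and 4 such mice were found. How many chance alone gives was not worked out for these CPM, and the genes share the same mice. The 4 mice are therefore given as descriptions and not as an excess. Lcn2 was at 3.09 CPM in day 4 mouse A against 0.0321 to 0.141 in the other 3. Ptx3 was at 5.36 CPM in day 8 mouse C against 0.138 to 0.568. Cd44 was at 6.66 CPM in rapamycin mouse C against 1.46 to 1.8. Steap4 was at 1.53 CPM in control mouse B, the mouse with the highest Ttr, against 0.115 to 0.346. Gfap went opposite ways in 2 groups taken on the same day. All day 13 mice were above and all rapamycin mice below the controls, with a difference of mean log2 CPM of 2.53, which edgeR called directly between the 2 groups (log2 fold change -2.70, adjusted p = 8.37e-04).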

How the results depend on the processing

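The members called changed with some settings. Without a minimum fold change 2 were called on day 6, Gfap and Serpina3n, and with a minimum log2 fold change of 1 only Lcn2 was called for rapamycin against control, a count of 1. The fit on all 24 mice lost the call of Lcn2 on day 13, and called 0 for rapamycin against control and 5 for day 13 against day 8. The shares of all genes called in that fit and without a minimum fold change are not given here. With the Xist level as covariate 4 were called on day 13. The same letters did not pair the mice: same-letter correlations of deviations from the group means ran from -0.234 to 0.136. With the replicate block 0 were called on day 8, 6 on day 13 and 5 for rapamycin against day 13. Leaving out each mouse in turn gave 0 to 0 members on day 4, 0 to 1 on day 6, 0 to 4 on day 8, 4 to 9 on day 13, 1 to 4 for rapamycin against control, 6 to 8 for rapamycin against day 13 and 0 to 0 for day 13 against day 8. DESeq2, its size factors, thinning, the animal number series as a block and no filter moved no count by over 1.5 times, where for Lcn2 with rapamycin DESeq2 gave no adjusted p and thinning lost the call. Of 1036 values of single members under alternatives, 0 changed direction while called, 39 changed direction uncalled, 63 lost a call and 11 gained one. Of 168 list counts, 16 moved by over 1.5 times under DESeq2. Depth limits Lcn2, Ptx3 and Steap4, with at most 92 counts in each control mouse.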
